A study of Mus musculus with 6 samples.

Results

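Transcripts of 39 enzymes and carriers that make serine-derived folate units, recycle methionine, and build purines, pyrimidines, deoxynucleotides and polyamines were followed in mouse induced regulatory T cells (iTreg) given prostaglandin E2 (PGE2). The genes were chosen by name for their place in these pathways, with earlier results of these data known. The shares of members set beside those of all tested genes below therefore describe this list and do not test it. Of the 39, 38 reached the level needed for testing, an average of 1 FPKM or more, as did 12113 genes in all. FPKM counts the fragments of a transcript relative to its length and to the size of the library. The member under that level was Aldh1l2, a mitochondrial folate dehydrogenase, at 0.126 FPKM on average. The branches held 9 tested genes for serine and folate, 4 for methionine, 14 for purines, 6 for pyrimidines, 3 for deoxynucleotides and 2 for polyamines.

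All 6 libraries came from C57BL/6 mice of genotype Foxp3-DTR/EGFP, in which EGFP, with the diphtheria toxin receptor, reports Foxp3, the transcription factor that marks regulatory T cells. Splenic CD4+ T cells were driven toward the iTreg state for 2 days with plate-bound antibody to CD3, soluble antibody to CD28 and TGF-β. They were then kept for 6 h with vehicle (DMSO) or with 100 nM PGE2, a lipid mediator read by the receptors EP1 to EP4, and the EGFP-positive cells were sorted. Each group had 3 libraries. The labels give no age for the mice, and whether replicates are separate mice or cultures is not stated. A p-value here therefore measures only the spread between these samples. The cells are a model made in culture, not regulatory T cells taken from a tissue.

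Serine gives a carbon unit to folate through the SHMT enzymes, and MTHFD enzymes carry that unit through oxidation states that feed thymidylate, purine and methionine synthesis. Purines are assembled step by step on a ribose phosphate made by PRPS, pyrimidines are started by CAD as a free ring, and ribonucleotide reductase turns ribonucleotides into the building blocks of DNA. Polyamines start from ornithine, which ODC1 decarboxylates, and take aminopropyl groups from decarboxylated S-adenosylmethionine. T cells raise these pathways when they are activated and begin to divide, with MYC, mTORC1 and ATF4 among the known regulators.

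The sorted cells carried the markers of their label. Foxp3 itself averaged 92.1 ± 14.4 FPKM under vehicle and 115 ± 22.5 under PGE2 (SD, n = 3; limma, adjusted p = 0.51), and all 7 Treg markers and all 7 T cell markers were over 1 FPKM. The Treg markers summed to 1595 to 1697 FPKM with vehicle and 2025 to 2137 with PGE2. Summed FPKM was 3.83 to 5.7 with vehicle and 3.55 to 4.33 with PGE2 over 5 B cell markers, 0.124 to 0.781 and 0.121 to 0.301 over 7 myeloid markers, and 0.627 to 2.79 and 2.26 to 4.53 over 4 NK cell markers. The sum was 5.28 to 5.6 and 5.92 to 6.64 over 2 CD8 T cell markers, 1.44 to 1.75 and 1.51 to 2.86 over 6 erythroid and platelet markers, and 9.18 to 10.8 and 10.5 to 12.1 over 5 stromal and endothelial markers. The NK markers Ncr1 and Klrb1c, the myeloid markers S100a8 and S100a9, the platelet markers Pf4 and Ppbp, and Col3a1 were listed at 0 in every library. The sums over Treg and CD8 markers were higher with PGE2 without overlap and those over NK markers with overlap. Among Treg markers, Tnfrsf18 (412 ± 70.4 and 707 ± 42.3 FPKM, limma adjusted p = 0.056) and Ctla4 (199 ± 7.14 and 345 ± 5.93, 0.0076) lay above vehicle in every PGE2 library. Foxp3, Ikzf2, Izumo1r, Il2ra and Ikzf4 overlapped, and Il2ra and Ikzf4 had a lower mean with PGE2. The part of these markers in the results below was not tested. Depth, read as the ratio of coverage to FPKM, was 4 to 5.12 gigabases of fragments with vehicle and 4.54 to 5.45 with PGE2 (exact permutation test, two-sided, p = 0.5). The library numbered 3 had the lowest depth of each group. Summed FPKM of annotated genes was 91.6% (vehicle) and 91.4% (PGE2) of that of assembled loci in the libraries numbered 3. It was 93.2% to 94.2% in the rest. Over tested genes, deviations from the group means correlated at 0.529 between the libraries numbered 3 and at -0.433 to -0.286 between each of these and the other group's replicates 1 and 2.

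After 6 h of PGE2 the transcripts of the synthesis enzymes were lower in most cases. Of the 38 tested members 34 had a lower mean with PGE2, against 56.7% of all tested genes, and 4 fell while 0 rose at an adjusted p under 0.05 with limma. Over all tested genes 0.809% passed, with 0.239% that fell and 0.57% that rose. The 4 that fell were Shmt1, Shmt2 and Mthfd1 of the folate cycle and Ahcy of the methionine cycle. With the replicate number as a block, 7 members fell and 1 rose, where 1.49% of all tested genes fell and 1.77% rose, and these 8 held the same 4 genes. The additional ones were Ctps, Atic and Srm among the falls and Odc1 as the rise. Without both libraries numbered 3, 2 members were called lower, Shmt1 and Srm, and the median log2 change was -0.20. In bulk RNA, fewer cells with a transcript and less of it per cell cannot be told apart.

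The difference was small for each gene and common to many of them. The median log2 change was -0.27 over the members and -0.03 over all tested genes, on the scale of log2(FPKM + 1). In 25 of the 38 all 3 PGE2 libraries lay below all 3 vehicle libraries, which held for 11.9% of all tested genes, and in 1, Odc1, they lay above, against 7.81%. Before adjustment, 22 members were lower and 1 higher at p under 0.05, where the shares of all tested genes were 7.59% and 5.46%. The median of the members against the vehicle mean was -0.304, -0.19 and -0.285 in PGE2 replicates 1, 2 and 3 and -0.032, -0.003 and 0.021 in vehicle replicates 1, 2 and 3. The same median over all tested genes stayed between -0.043 and 0.003 in every library.

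**Figure D1:**
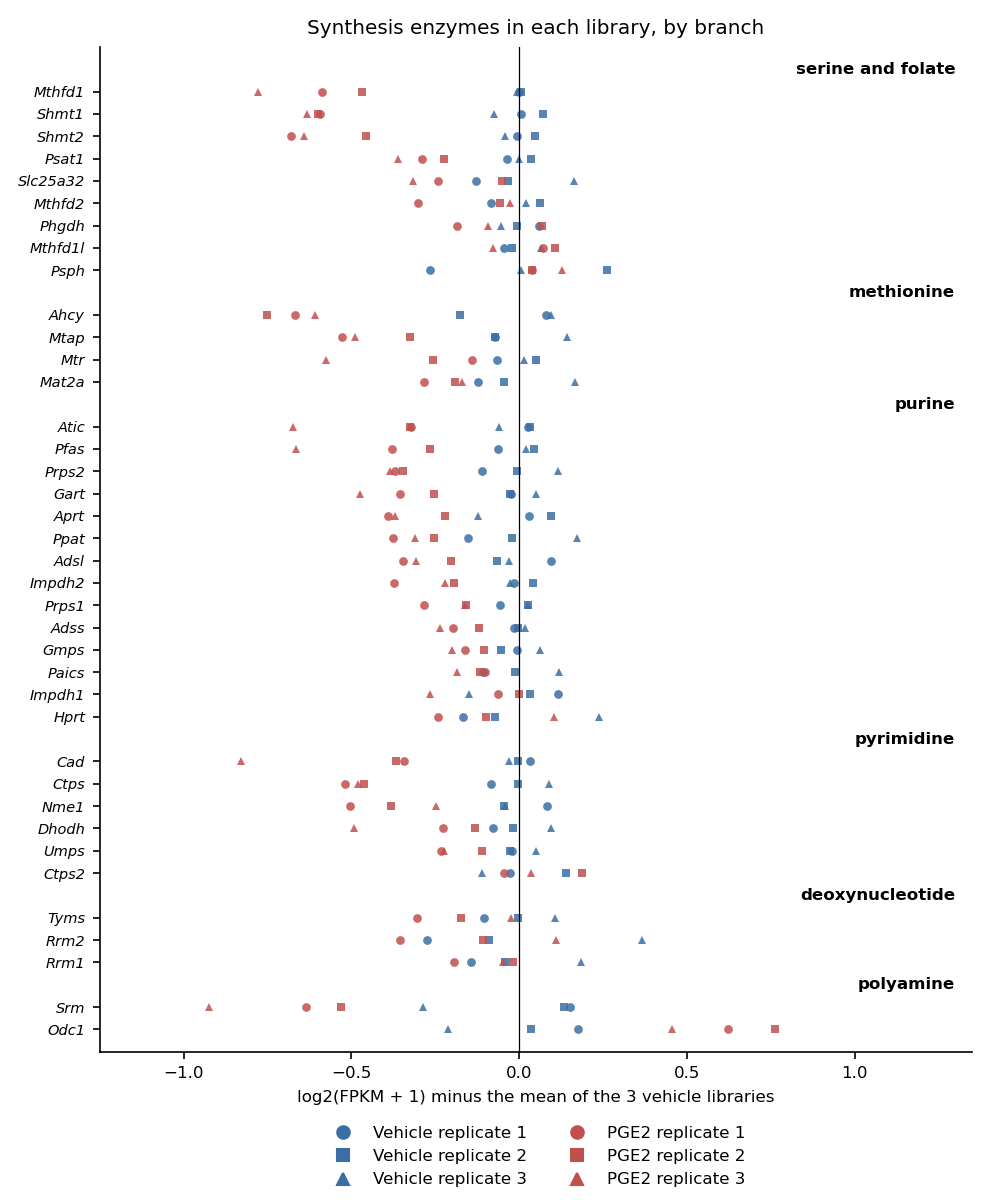
Each row is a synthesis gene, grouped by branch, and each point a library, as log2(FPKM + 1) minus the mean of the 3 vehicle libraries (vehicle in blue, PGE2 in red, shapes for replicate numbers). The PGE2 points lie left of all vehicle points for 25 of 38 genes, and right of them for Odc1 only.

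Of the 38 genes, 17 had their lowest value in PGE2 replicate 1 and 17 in PGE2 replicate 3, whereas 1 had it in PGE2 replicate 2. The lowest value fell in a vehicle library for the other 3. Leaving out 1 library removed most or all of the calls among the members. Without vehicle replicate 3, Shmt1 was the 1 member called lower (adjusted p = 0.043 with limma), and leaving out any of the other 5 libraries (vehicle replicates 1 and 2 and PGE2 replicates 1, 2 and 3) left 0 members called. The 4 genes called with all 6 libraries kept their direction in each of these fits. Their groups do not overlap, so that direction was fixed in advance.

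Transcripts of the SHMT enzymes, which move a carbon from serine to folate, fell for both the cytosolic and the mitochondrial form. Shmt1, the cytosolic enzyme (ENSMUSG00000020534.14, mm10 chromosome 11 from 60788104 to 60811718), measured 13.8, 14.5 and 13 FPKM under vehicle, in the order of replicates 1, 2 and 3 used throughout, and 8.77, 8.74 and 8.52 under PGE2. The groups lay far apart against their spread, and Shmt1 fell 1.52-fold (log2 change -0.61, SE 0.08, adjusted p = 0.029 with limma). Shmt2, the mitochondrial enzyme (ENSMUSG00000025403.4, chromosome 10 from 127517123 to 127522444), was at 69.4, 72 and 67.6 FPKM with vehicle and at 43.1, 50.5 and 44.3 with PGE2. It fell 1.51-fold (log2 change -0.59, SE 0.09, adjusted p = 0.038 with limma), again without overlap. Per length Shmt2 was the more abundant, and the ratio of Shmt1 to Shmt2 was 0.199, 0.201 and 0.192 with vehicle and 0.203, 0.173 and 0.192 with PGE2. That ratio differed by less than the spread between replicates (exact permutation test, two-sided, p = 0.7; 3 libraries against 3 allow no p below 0.1). In vehicle replicate 1 the Shmt1 value was 70% of the assembled locus over the gene, against 94% to 100% in the other libraries.

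Downstream, the transcripts of the cytosolic and mitochondrial steps differed in their values. Mthfd1, the cytosolic enzyme with 3 activities (ENSMUSG00000021048.6, chromosome 12 from 76255232 to 76319820), was at 23.5, 23.6 and 23.4 FPKM with vehicle and 15.3, 16.7 and 13.3 with PGE2. The vehicle libraries were almost identical and all PGE2 libraries lower, and Mthfd1 fell 1.53-fold (log2 change -0.61, SE 0.1, adjusted p = 0.048 with limma). Its mitochondrial counterparts did not pass. Mthfd2, the mitochondrial dehydrogenase that activated T cells induce, was at 50, 55.4 and 53.8 FPKM with vehicle and 42.8, 50.9 and 52 with PGE2, with a 95% interval of the log2 change from -0.36 to 0.11. Mthfd1l, the mitochondrial formate-producing synthetase, was at 21.4, 21.8 and 23.2 and at 23.3, 23.9 and 20.9 FPKM, with an interval from -0.17 to 0.24. Both groups overlapped for these genes, and whether their change differs from that of Mthfd1 was not tested. Slc25a32, the mitochondrial folate carrier, was the lowest tested member, at 4.73 ± 0.596 and 3.98 ± 0.474 FPKM (SD, n = 3).

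The enzymes that make serine from a glycolytic intermediate showed smaller differences. Phgdh, which catalyses the entry step, was among the most abundant members, at 160, 153 and 148 FPKM with vehicle and 135, 161 and 144 with PGE2. Its groups overlapped, and the 95% interval of the log2 change ran from -0.29 to 0.15. Psat1, the transaminase of the next step, was at 57.5, 60.5 and 59 FPKM with vehicle and at 48.1, 50.4 and 45.7 with PGE2. The PGE2 libraries all lay below the vehicle libraries, but the log2 change of -0.29 missed the threshold (adjusted p = 0.16 with limma). Psph, the phosphatase of the last step, was at 16 ± 3.12 and 16.7 ± 0.604 FPKM. Its values were 51% to 98% of the assembled locus over the gene, and by coverage its log2 change was -0.10 in place of 0.07.

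In the methionine cycle all 4 genes lay lower with PGE2 in every library, as did 11.9% of all tested genes. Ahcy, which hydrolyses the S-adenosylhomocysteine left by methylation reactions (ENSMUSG00000027597.15, chromosome 2 from 155059310 to 155074497), was at 66.4, 55.5 and 67.1 FPKM with vehicle and at 39.1, 36.9 and 40.8 with PGE2. It had the largest fall among the called members, 1.6-fold (log2 change -0.68, SE 0.1, adjusted p = 0.035 with limma). Mtap, which salvages the methylthioadenosine released by polyamine synthesis, was at 14.5, 14.5 and 17 FPKM with vehicle and 10.3, 12 and 10.6 with PGE2. Its log2 change of -0.45 (SE 0.1) did not pass (adjusted p = 0.12 with limma). Mtr, methionine synthase, was at 7.95 ± 0.371 and 6.2 ± 1.08 FPKM, and Mat2a, which makes S-adenosylmethionine, at 71.7 ± 7.7 and 61.5 ± 2.62 FPKM (SD, n = 3), with adjusted p = 0.35 and 0.42 with limma.

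Promoter sequence was taken from RefSeq on GRCm38.p6, the assembly of mm10, for windows of 250 bases before to 50 after the start. Windows were found for 34 of the 38 members, 40 in all, and not for Dhodh, Pfas, Slc25a32 and Srm. The 250 upstream bases are shown 5′ to 3′ for 3 of the genes that fell and for Atic and Odc1, which passed with the block in opposite directions. Capitals mark the motif matches described after them.
Shmt2, chr10:127522445-127522694, minus strand: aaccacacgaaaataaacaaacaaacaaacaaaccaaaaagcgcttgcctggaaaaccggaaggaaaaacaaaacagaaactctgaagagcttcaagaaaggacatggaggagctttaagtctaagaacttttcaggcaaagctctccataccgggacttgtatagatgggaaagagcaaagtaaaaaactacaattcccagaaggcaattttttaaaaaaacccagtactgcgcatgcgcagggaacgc
Mthfd1, chr12:76254982-76255231, plus strand: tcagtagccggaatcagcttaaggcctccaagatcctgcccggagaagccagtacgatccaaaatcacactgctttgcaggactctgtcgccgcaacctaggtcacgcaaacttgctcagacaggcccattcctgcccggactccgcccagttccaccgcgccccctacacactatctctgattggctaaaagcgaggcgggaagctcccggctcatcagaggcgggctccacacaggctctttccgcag
Ahcy, chr2:155074498-155074747, minus strand: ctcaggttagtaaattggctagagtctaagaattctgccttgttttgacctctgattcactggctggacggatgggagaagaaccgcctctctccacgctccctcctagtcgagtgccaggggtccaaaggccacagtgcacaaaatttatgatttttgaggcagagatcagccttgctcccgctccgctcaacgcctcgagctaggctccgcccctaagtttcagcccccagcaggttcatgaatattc
Atic, chr1:71556906-71557155, plus strand: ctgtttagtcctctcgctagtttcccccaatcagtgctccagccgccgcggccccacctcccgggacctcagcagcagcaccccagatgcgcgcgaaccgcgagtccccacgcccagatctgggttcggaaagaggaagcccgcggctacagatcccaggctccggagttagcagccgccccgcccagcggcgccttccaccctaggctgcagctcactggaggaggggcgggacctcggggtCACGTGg
Odc1, chr12:17544623-17544872, plus strand: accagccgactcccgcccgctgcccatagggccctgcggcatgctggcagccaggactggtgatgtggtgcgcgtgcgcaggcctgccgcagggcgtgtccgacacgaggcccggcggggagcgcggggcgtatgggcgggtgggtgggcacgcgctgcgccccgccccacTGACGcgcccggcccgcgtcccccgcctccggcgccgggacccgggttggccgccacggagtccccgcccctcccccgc

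In the stretches shown, Atic holds an E-box, CACGTG, the element bound by MYC and MAX, beginning 7 bases before the start. Odc1 holds TGACG, the short form of the cAMP response element, beginning 79 bases before the start. Shmt2 has an E2F match in the 50 bases after the start, which are not shown, and the windows of Mthfd1 and Ahcy hold none of the 6 motifs searched. The Shmt1 window, whose RefSeq start lies 453 bases inside the gene as the files give it, is not shown and holds a TGACG 128 bases before that start.

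All 6 motifs were searched on both strands of the whole 300-base windows. CACGTG was in 6 of 40 member windows (15%), in 7.15% of all 32851 windows and in 10.3% of the 10010 windows of tested genes. The members were Atic, Impdh2, Paics, Tyms and Nme1, the last with 2 starts. The E2F element TTTNNCGC was in 20%, 5.17% and 9%, and TGACG in 35%, 20.8% and 33%. The full cAMP response element TGACGTCA, every match of which also counts as TGACG, was in 2.5%, 1.79% and 3.34%. The ATF4 and C/EBP element TGATGNAAN was in 2.5%, 3.95% and 2.15%, and the ETS element CCGGAAGT in 5%, 3.89% and 9.14%. A match is a run of letters and not a bound site.

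Purine synthesis genes lay lower with PGE2 along the whole pathway, with no call. All 14 tested genes had a lower mean with PGE2, 11 had no overlap between the groups, and 10 were lower at p under 0.05 before adjustment, but 0 fell or rose with limma. Of all tested genes 56.7% had a lower mean, 11.9% lay below without overlap, 7.59% were lower at that p, and 0.809% passed. The branch median was -0.27, and the log2 changes ran from -0.44 to -0.08. Atic, which closes the purine ring in the final folate-dependent step, was at 42.7, 42.9 and 40 FPKM with vehicle and at 33.3, 33.2 and 25.9 with PGE2. Atic fell with the replicate block (adjusted p = 0.048) and not without it (log2 change -0.44, SE 0.11, limma adjusted p = 0.15; alternatives 0.048 to 0.43).

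The steps before it lay lower as well. Gart, which carries out 3 steps including the first folate-dependent one, was at 28.8, 28.7 and 30.4 FPKM with vehicle and 22.7, 24.4 and 20.8 with PGE2. Pfas, the amidotransferase of the middle of the pathway, was at 8.83, 9.58 and 9.41 and at 6.89, 7.54 and 5.48 FPKM. Adsl, which releases fumarate at a pair of steps, went from 27 ± 1.69 to 22 ± 1.16 FPKM (SD, n = 3). None of these passed, with adjusted p of 0.13, 0.17 and 0.21 with limma. The Pfas values were 70% to 83% of the assembled locus over the gene.

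Ppat, the amidotransferase that commits ribose phosphate to purines, and Paics, a later enzyme with 2 activities, lie head to head on chromosome 5, where the gene spans in the files overlap by 272 bases on opposite strands. Ppat was at 13.6, 15 and 17.3 FPKM with vehicle and 11.5, 12.6 and 12.1 with PGE2, without overlap. Paics was at 64.2, 68.6 and 75.2 and at 64.4, 63.8 and 60.7 FPKM, with overlap. The library kit keeps strand, but the strand setting used for the gene values is not given in the sources used here.

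Among the 8 genes of ribose phosphate supply, the branch to AMP and GMP, and salvage, 0 passed, where 0.809% of all tested genes did. Adjusted p of these 8 ran from 0.12 to 0.89 with limma. Prps2, a PRPP synthetase, was at 21.1, 22.8 and 24.9 FPKM with vehicle and at 17.5, 17.8 and 17.3 with PGE2, and Prps1, its sister enzyme, at 40.6 ± 1.39 and 35.2 ± 1.76 FPKM. Impdh2, the main IMP dehydrogenase of dividing lymphocytes, was at 101, 105 and 100 FPKM with vehicle and 78.5, 89.1 and 87.4 with PGE2, without overlap. Impdh1, its sister enzyme, was at 33.6 ± 3.21 and 31.1 ± 3 FPKM, with overlap. Adss, on the way to AMP, was at 34.7 ± 0.402 and 30.5 ± 1.29 FPKM, and Gmps, on the way to GMP, at 11.3 ± 0.461 and 10 ± 0.391 FPKM. The Gmps values were 35% to 100% of the assembled locus over the gene, so the Gmps level is uncertain. Of the salvage enzymes, Aprt for adenine was at 66.8, 69.9 and 60 and at 49.7, 56 and 50.4 FPKM, without overlap. Hprt for hypoxanthine and guanine was at 101, 108 and 134 and at 95.8, 106 and 122 FPKM, with overlap and a 95% interval of the log2 change from -0.40 to 0.24. Reads of Prps1 may be shared with its retrocopy Prps1l3, so the Prps1 level is uncertain.

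Of the 6 pyrimidine genes 5 had a lower mean with PGE2, and 0 passed with limma on FPKM at the filter of 1 FPKM without the block. The shares of all tested genes were 56.7% with a lower mean, 0.809% that passed, and 11.9% below vehicle without overlap. Cad, the enzyme with 3 activities that opens the pathway, was at 23, 22.4 and 22 FPKM with vehicle and at 17.5, 17.2 and 12.2 with PGE2 (log2 change -0.51, SE 0.14, adjusted p = 0.16 with limma). Dhodh, the mitochondrial dehydrogenase, was at 6.43 ± 0.46 and 5.13 ± 0.767 FPKM, and Umps, which completes UMP, at 19.2 ± 0.622 and 16.7 ± 0.831 FPKM (SD, n = 3). For each of these 3 genes all PGE2 libraries lay below all vehicle libraries. Nme1, a nucleoside diphosphate kinase, was at 47.1, 43 and 43.1 and at 31, 33.8 and 37.2 FPKM, also without overlap. Nme1 and its neighbour Nme2 are close homologs, and Nme1 was 37% to 100% of the assembled locus, so its level is uncertain.

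CTP synthesis is served by a pair of enzymes. Ctps, the form that proliferating T cells depend on (ENSMUSG00000028633.7, chromosome 4 from 120539868 to 120570276), was at 19.4, 20.6 and 22 FPKM with vehicle and at 14.1, 14.7 and 14.5 with PGE2. The change of -0.49 (SE 0.08) lay just outside the threshold (adjusted p = 0.053 with limma) and inside it with the replicate block (0.029), on coverage (0.042) and with a filter at 5 FPKM (0.041), with 0.23 as the highest value among the alternatives. Ctps2 was at 5.83, 6.66 and 5.44 and at 5.74, 6.93 and 6.13 FPKM, with overlap. The ratio of Ctps2 to Ctps was 0.301, 0.324 and 0.248 with vehicle and 0.408, 0.472 and 0.423 with PGE2, without overlap (exact permutation test, two-sided, p = 0.1, the smallest that 3 against 3 allow; 0.2 adjusted over 4 ratios). The ratio of Prps1 to Prps2, at 1.85, 1.81 and 1.66 and at 1.89, 2.04 and 2.09, gave the same p. That of Impdh1 to Impdh2 overlapped (exact p = 0.3). The annotated Ctps2 value was 17% to 27% of the assembled locus over the gene, so its level is uncertain.

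**Figure D2:**
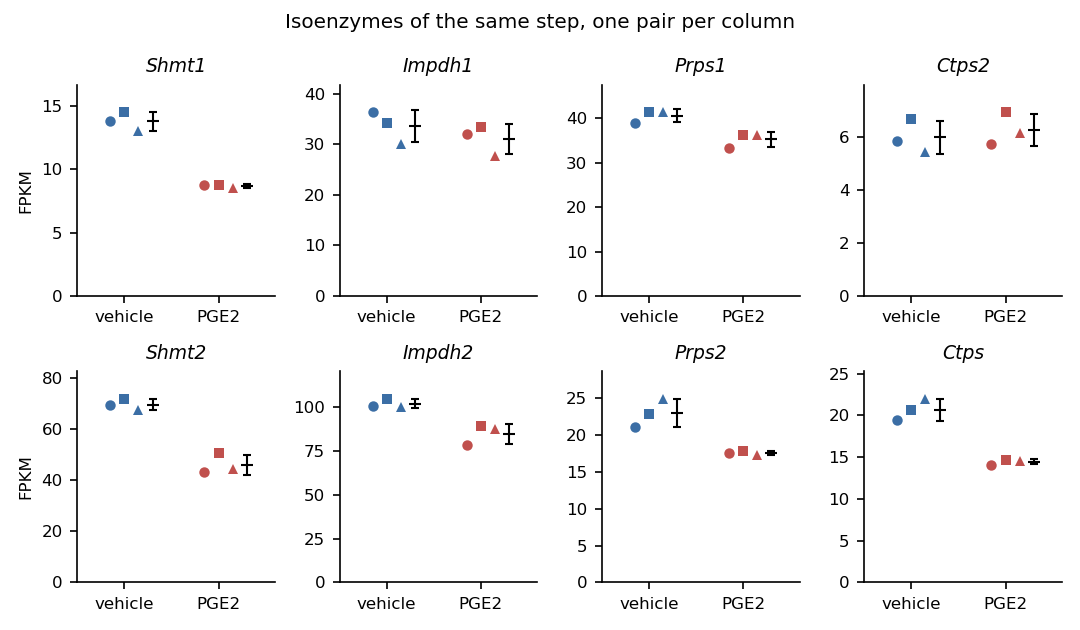
FPKM in each library for 4 pairs of enzymes of the same step, a pair per column, with vehicle in blue and PGE2 in red (shapes for replicate numbers, bars for mean ± SD, n = 3, axes from 0). Shmt1 and Shmt2 lie lower together with PGE2, while Ctps lies lower and Ctps2 overlaps between the groups.

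The deoxynucleotide enzymes overlapped between the groups in all 3 cases. Among all tested genes 11.9% lay below vehicle without overlap and 7.81% above. Rrm1 and Rrm2, the subunits of ribonucleotide reductase, were at 91.6 ± 10.9 and 180 ± 42.9 FPKM with vehicle and at 86.1 ± 5.59 and 164 ± 26.3 with PGE2. Tyms, which methylates dUMP with a folate unit, was at 26.8, 28.8 and 31.2 and at 23.2, 25.5 and 28.4 FPKM. The 95% intervals of the log2 change were -0.34 to 0.17 for Rrm1, -0.55 to 0.32 for Rrm2 and -0.41 to 0.08 for Tyms. Rrm2 was highest in the libraries numbered 3 of both groups, at 228 FPKM with vehicle and 191 with PGE2. Without vehicle replicate 3 the log2 changes of Rrm1 and Rrm2 were 0.0081 and 0.07.

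Genes of DNA replication and mitosis, listed to set beside these enzymes, gave 0 calls among 40 by limma in either direction, also with the replicate block. Before adjustment 1 was lower and 0 higher at p under 0.05. The median log2 change of these 40 was -0.04. Of all tested genes 0.809% passed without the block, and 1.49% fell and 1.77% rose with it. Before adjustment the shares were 7.59% lower and 5.46% higher. The gene with the smallest p, Uhrf1, which guides maintenance DNA methylation, was at 107, 108 and 113 FPKM with vehicle and at 95.5, 95.4 and 90 with PGE2. Mcm2, a subunit of the replicative helicase, was at 80.8 ± 1.4 and 72.1 ± 3.91 FPKM, Aurka, a mitotic kinase, at 31.1 ± 2.92 and 35.2 ± 3.05, and Pola1, a DNA polymerase subunit, at 13.3 ± 2.21 and 11.3 ± 0.695 (SD, n = 3). Whether the synthesis enzymes differ from these genes as groups was not tested.

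**Figure D3:**
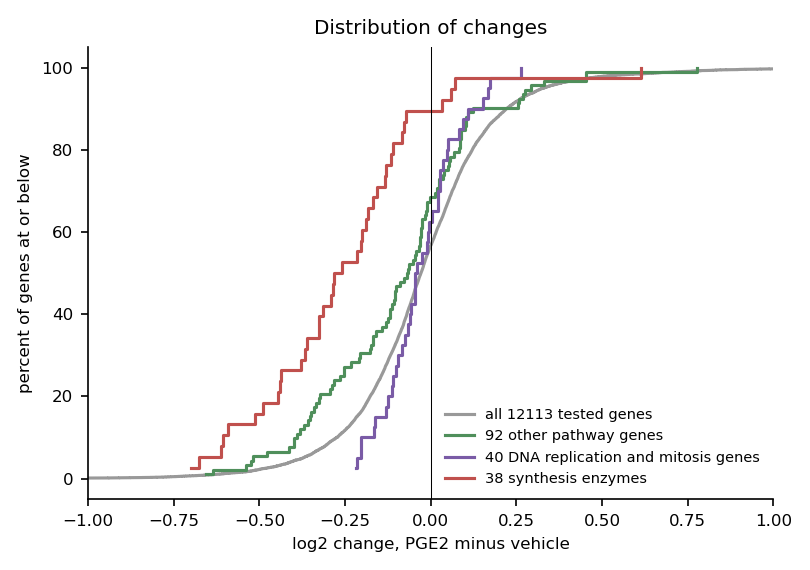
The horizontal axis is the log2 change on the log2(FPKM + 1) scale, PGE2 minus vehicle, shown from -1 to 1, and the vertical axis the percent of genes at or below it. The curve of the 38 synthesis enzymes lies left of that of all 12113 tested genes over most of its range (medians -0.27 and -0.03), and that of 40 DNA replication and mitosis genes stays between -0.22 and 0.26. The curve of the 92 other pathway genes has a median of -0.07.

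The polyamine members had changes of opposite sign. Odc1, the ornithine decarboxylase that starts the pathway (ENSMUSG00000011179.7, chromosome 12 from 17544873 to 17551502), was the most abundant member on average, at 181, 164 and 138 FPKM with vehicle and at 247, 272 and 220 with PGE2. All PGE2 libraries lay above all vehicle libraries. The log2 change of 0.61 (SE 0.13) missed the threshold (adjusted p = 0.095 with limma), and Odc1 rose with the replicate block (adjusted p = 0.023; alternatives 0.023 to 0.3). Srm, spermidine synthase (ENSMUSG00000006442.10, chromosome 4 from 148591503 to 148594993), was at 49.2, 48.6 and 36.1 FPKM with vehicle and at 28.1, 30.3 and 22.8 with PGE2. Its log2 change of -0.70 (SE 0.15) was the lowest of all members. It missed the threshold without the block (adjusted p = 0.1 with limma) and passed with it (0.0095; alternatives 0.0095 to 0.33). For both genes the libraries numbered 3 were the lowest of their group.

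Of 16 other polyamine genes tested, 11 had a lower mean with PGE2, 9 overlapped between the groups, and 0 passed without the block. Without overlap 4 lay below vehicle and 3 above, against 11.9% and 7.81% of all tested genes. Of these tested genes 56.7% had a lower mean and 0.809% passed. Amd1, which supplies decarboxylated S-adenosylmethionine, was at 16.3, 17.4 and 17.9 FPKM with vehicle and 12, 15.5 and 12.5 with PGE2, and its reads may be shared with the copy Amd2. Sms, spermine synthase, was at 7.26, 8.55 and 10.8 and at 6.2, 7.33 and 6.17 FPKM, with overlap. Sat1, which acetylates polyamines for export or breakdown, was at 54.1, 62.1 and 56.8 FPKM with vehicle and 72.4, 76.4 and 89.8 with PGE2 (log2 change 0.45, SE 0.11, adjusted p = 0.12 with limma, 0.054 with the block). Smox, spermine oxidase, was at 16.4, 15 and 13.4 and at 23.1, 19.4 and 19.8 FPKM (limma log2 change 0.45, SE 0.11, adjusted p = 0.13), and rose with the block (0.037). By coverage the log2 change of Smox was 0.25 (adjusted p = 0.21 with limma). Sat1 and Smox lay above vehicle in every PGE2 library. Paox, another polyamine oxidase, was at 4.33, 4.25 and 4.39 and at 3.42, 4.29 and 4.05 FPKM, with overlap (adjusted p = 0.72 with limma). Oaz2, an antizyme that targets ODC1 for degradation, was at 17.8 ± 0.39 and 21.7 ± 0.706 FPKM, and Oaz1 at 364 ± 4.79 and 397 ± 36.9. Eif5a, which carries the spermidine-derived hypusine, was at 737 ± 63.2 and 685 ± 44 FPKM, with overlap.

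**Figure D4:**
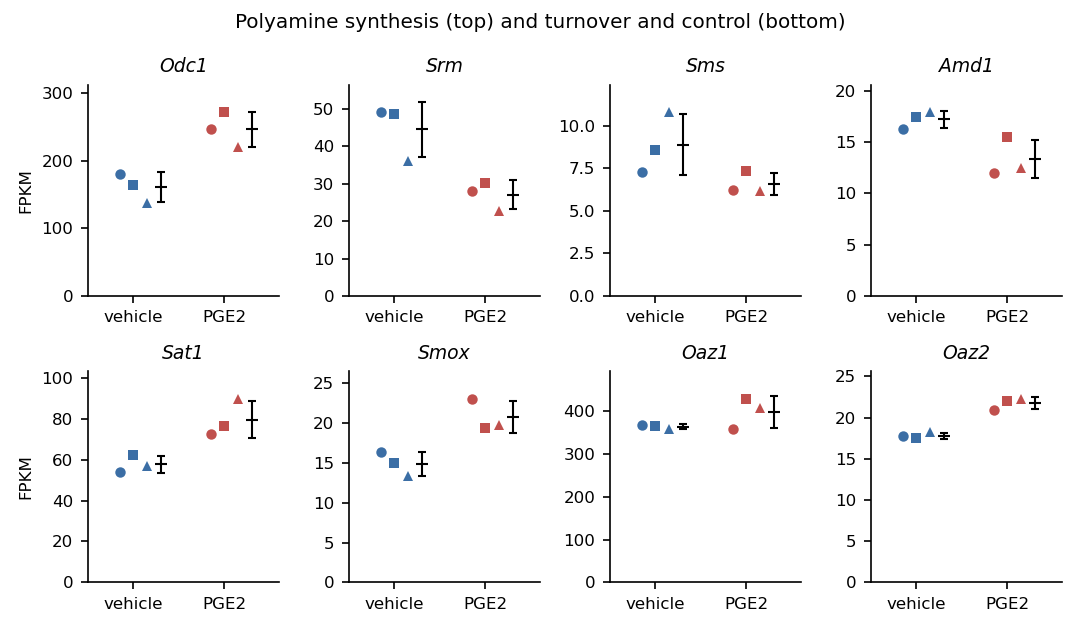
FPKM in each library for polyamine synthesis genes (top row) and genes of turnover and control (bottom row), with vehicle in blue and PGE2 in red (shapes for replicate numbers, bars for mean ± SD, n = 3, axes from 0). Odc1, Sat1, Smox and Oaz2 lie above vehicle in all 3 PGE2 libraries, and Srm and Amd1 below.

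Further genes of the same pathways were listed apart from the members. Of 122 listed, 92 were tested, 63 had a lower mean with PGE2 (68.5%), and 0 passed by limma in either direction. Among all tested genes 56.7% had a lower mean and 0.809% passed. The median log2 change of these 92 was -0.07, against -0.27 over the members and -0.03 over all tested genes. Before adjustment 21 of the 92 were lower and 6 higher at p under 0.05. That is 22.8% lower, against 57.9% of the members and 7.59% of all tested genes. With the replicate block 3 fell, Slc19a1, Ampd2 and Nme4, and 2 rose, Smox and Xdh. Among all tested genes 1.49% fell and 1.77% rose in that fit, and 5.46% were higher before adjustment without the block. Slc19a1, the reduced folate carrier of the plasma membrane, was at 8.1, 8.43 and 6.98 FPKM with vehicle and at 5.29, 5.67 and 4.58 with PGE2 (adjusted p = 0.1 with limma, 0.033 with the block). Sfxn1, which carries serine into mitochondria, was at 24.5, 26.6 and 25.5 and at 18.7, 21.8 and 17.8 FPKM (adjusted p = 0.14). Slc1a5, a neutral amino acid transporter, was at 64 ± 9.13 and 52.1 ± 4.13 FPKM, with overlap.

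In the methionine branch, Adi1 of the methylthioadenosine salvage route was at 13.6, 11.9 and 12.3 FPKM with vehicle and 8.94, 9.79 and 9.38 with PGE2 (adjusted p = 0.12 with limma). Mmachc, which processes the cobalamin that Mtr needs, was at 3.12, 4.07 and 4.41 and at 2.34, 2.48 and 2.6 FPKM (0.17). Ahcyl2, a relative of Ahcy, was at 75 ± 3.52 and 82.8 ± 21.4 FPKM, with overlap. Among purine genes, Ampd2, an AMP deaminase, was at 22.8, 23.5 and 19.7 and at 17.4, 17.1 and 14.7 FPKM (adjusted p = 0.15 with limma, 0.042 with the block). Xdh, which oxidises hypoxanthine to urate, was at 6.33, 4.99 and 3.58 FPKM with vehicle and at 11.9, 9.53 and 6.43 with PGE2, a log2 change of 0.78 (SE 0.24, adjusted p = 0.22 with limma, 0.012 with the block).

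In the pyrimidine branch, Nme4, a mitochondrial nucleoside diphosphate kinase, was at 7.79, 7.49 and 7.25 FPKM with vehicle and at 4.61, 5.09 and 3.6 with PGE2 (log2 change -0.66, SE 0.12, adjusted p = 0.068 with limma, 0.03 with the block). Uck2, a uridine and cytidine kinase, was at 36.2, 36.7 and 35.2 and at 29.5, 29 and 22.6 FPKM (0.17). Nme2 was at 211 ± 11.3 and 188 ± 33.2 FPKM, with overlap. In the deoxynucleotide branch, Dctd, the dCMP deaminase that feeds thymidylate synthesis, was at 4.02, 2.92 and 3.25 and at 1.62, 1.91 and 1.94 FPKM (limma log2 change -0.64, SE 0.13, adjusted p = 0.084), and fell when tested on coverage (0.019). Dctpp1, a dNTP pyrophosphatase, was at 38.3, 35.2 and 34.9 and at 24, 30 and 31.4 FPKM (0.27), and Samhd1, which degrades dNTPs, at 152, 147 and 131 and at 190, 171 and 154 FPKM (0.37). Txn1, a reductant for ribonucleotide reductase, was at 238 ± 45.3 and 255 ± 59.9 FPKM, with overlap.

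Myc and Atf4 overlapped between the groups. Myc was at 110, 74.6 and 86.4 FPKM with vehicle and at 81.1, 60.1 and 71.8 with PGE2, lower with PGE2 for each replicate number (log2 change -0.34, SE 0.17, adjusted p = 0.46 with limma, 0.071 with the block). Atf4 was at 160, 169 and 121 and at 129, 145 and 93.9 FPKM, also lower for each number (log2 change -0.30, SE 0.19, adjusted p = 0.58 with limma, 0.093 with the block). Neither passed in either fit, and their part in the lower levels of the enzyme transcripts was not tested. Comparisons by number, and the block, rest on a pairing in which the values do not tell number 1 from number 2. Myc in PGE2 replicate 1, at 81.1 FPKM, lay above vehicle replicate 2, at 74.6.

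**Figure D5:**
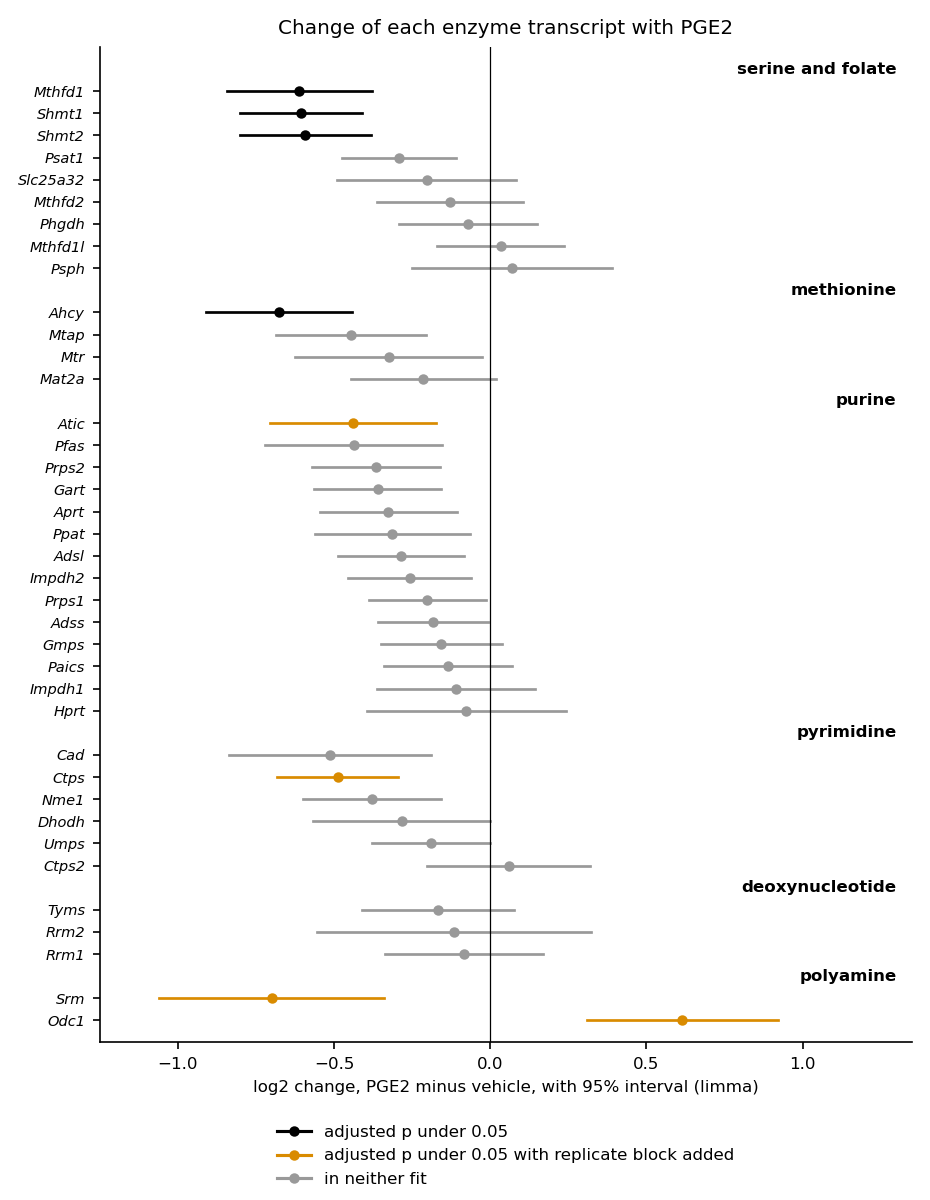
Log2 change of each synthesis gene, PGE2 minus vehicle on the log2(FPKM + 1) scale, with its 95% interval from limma, by branch. Black marks the 4 genes with an adjusted p under 0.05, orange those that passed when the replicate block was added (Atic, Ctps, Srm and Odc1), and grey those that passed in neither of these fits. All 4 genes in black lie left of 0.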

How the data were processed

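RNA was measured in 6 libraries, 3 per group, with groups and replicate numbers taken from the sample titles. Per the labels' protocols, a strand-keeping mRNA library kit was used. Trim Galore and HISAT2 were used on mm10, per the submitters' processing notes. The sources used here do not give tool versions, the gene annotation or the software behind the tables. Per the file headers, each table gives coverage, FPKM and TPM per gene. The FPKM values were deposited as the authors made them, relative to transcript length and library size. The deposited coverage signal is a mean read depth. TPM as deposited was handled as a score and left out, because it lists annotated genes and assembled loci together.

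Rows under an annotated gene were kept, and repeated IDs (21 to 27 per library) were summed. Genes averaging 1 FPKM or more were tested as log2(FPKM + 1), where a fold understates the change of low genes. limma 3.58.1 in R 4.3.3 was fitted over all 12113 genes with a variance trend, two-sided, with Benjamini-Hochberg adjustment and a threshold of 0.05. Dividing coverage by FPKM gave each library a constant, which 97.4% to 97.9% of single-transcript genes met within 1% and which served as depth; the number of reads is unknown, so no counting interval is given. Coverage divided by this constant was tested as an alternative.

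Same-numbered libraries deviated together from their group means (correlations over tested genes of 0.227, 0.312 and 0.529). The numbers were therefore taken to pair the samples, a link that comes from the titles' numbers and these values alone. Vehicle replicate 2 with PGE2 replicate 1 gave 0.271, and vehicle replicate 1 with PGE2 replicate 2 gave 0.149. The values thus set the libraries numbered 3 apart, but do not tell number 1 from number 2. Calls with the block rest on this pairing. Of 39 members, all are protein coding in GENCODE M21, and 33 have the same span there as in the files. For 32 of 38 tested members the value was over 80% of the assembled locus in every library. In data simulated for this comparison with 12113 genes, limma recovered 32% of 100 genes changed 1.5-fold and 69% of 100 changed 2-fold, with 8 false calls. The simulated noise was independent between genes and libraries, unlike the shared deviations seen here, so these figures may not hold for the real data. Figures were drawn with matplotlib 3.10.9.

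The members and lists were chosen with earlier results of these data known. Named were all members; of the other pathway genes those called, the 2 with the smallest p and the highest one per branch; Myc, Atf4 and Foxp3; and of the replication and mitosis genes those called and the 4 with the smallest p. A gene that this rule would name is not reported here. Xdh, Samhd1, Amd1, Amd2, Sms, Oaz1, Oaz2, Paox and Prps1l3, and all genes named under other observations, were chosen with their values in view.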

Additional observations from a re-analysis of the deposited data

How the results depend on the processing

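With the replicate block, 7 members fell and 1 rose, 3 other pathway genes fell and 2 rose, and 180 of all tested genes fell and 215 rose, and the 98 genes called without the block were all among these. Members called lower numbered 1 with no filter on low values, 1 with no variance trend and 2 without both libraries numbered 3, a setting chosen after seeing the data, and 5 on coverage and 5 with a filter at 5 FPKM, where Ctps was the addition. On coverage, 1 other pathway gene, Dctd, fell. Genes called lower over the whole table numbered 12 with no filter, 47 on coverage, 16 with no variance trend and 44 without both libraries numbered 3, against 29, and genes called higher 33 with no filter and 112 on coverage, against 69. Leaving out 1 library gave 0 to 1 members lower, 4 to 16 genes lower and 16 to 53 higher. The members' median log2 change was -0.21 with a pseudocount of 5 and -0.20 without both libraries numbered 3. It stayed within the spread between replicates in all other settings run, median centring and quantile normalization included. The sign changed for Psph on coverage (-0.10) and when 1 library was left out for Psph (-0.0644 to 0.2016), Mthfd1l (-0.0033 to 0.0885), Ctps2 (-0.0049 to 0.1296), Hprt (-0.1696 to 0.0395), Rrm1 (-0.1551 to 0.0081) and Rrm2 (-0.2523 to 0.0681). It also changed for the log2 ratio of Shmt1 to Shmt2 without PGE2 replicate 2 (leaving out 1 library gave -0.1121 to 0.0053) and for the difference in depth without vehicle replicate 3 (-0.0218 to 0.6001). The fits that leave out libraries have fewer samples, and the cause of the other changes was not tested. Adding assembled-locus values by gene name was not run, because the files give these loci no gene name.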

Other observations

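Several routes of these pathways that other tissues use were at or near 0 in the iTreg libraries. Mat1a, the liver form of methionine adenosyltransferase, Bhmt, which remethylates homocysteine with betaine, Cda, cytidine deaminase, Dpyd, which starts pyrimidine breakdown, and Uox, urate oxidase, were listed at 0 in every library. Cbs and Cth, the enzymes that turn homocysteine toward cysteine, were at 0.0178 ± 0.00897 and 0.199 ± 0.0126 FPKM with vehicle and at 0.0117 ± 0.00142 and 0.15 ± 0.094 with PGE2 (SD, n = 3). Gldc, which cleaves glycine into a folate unit, was at 0.0623 ± 0.00491 and 0.0772 ± 0.0324 FPKM, whereas its partner Gcsh was at 49.4, 45.1 and 44.5 FPKM with vehicle and at 36.2, 41.1 and 40.5 with PGE2, without overlap (adjusted p = 0.32 with limma).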
